A study of Mus musculus with 30 samples.

Results

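Slamf1, Cd48, Procr, Cd244, Cd34, Ly6a, Kit, Flt3, Cd27 and Cd9 encode surface proteins with which mouse haematopoietic stem cells (HSCs) and progenitor cells are recognised and sorted. They were taken by symbol from the count files and are 10 of the 46113 genes in them. All were measured by RNA sequencing of 30 libraries in 7 groups. Every library came from 100 bone marrow cells of C57BL/6 mice aged 8 to 10 weeks, and total RNA was converted to cDNA and prepared with the Nextera XT kit. In the first experiment, HSCs of untreated mice (4 libraries) were set beside HSCs 6 days (4 libraries) and 10 days (6 libraries) after 5-fluorouracil (5-FU), an antimetabolite that kills dividing cells. The sources used here give neither its dose nor its route. In the second, HSCs of untreated mice were profiled uncultured (4 libraries) or after 1 day in culture (4 libraries). In the third, CD48- HSCs (4 libraries) and CD48+ progenitor cells, called HPCs by the submitters (4 libraries), were sorted 10 days after 5-FU.

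The sort gate of the labels uses CD150, CD48, EPCR and a lineage panel whose antibodies the labels do not name. HSCs were CD150+ CD48- EPCR+ Lineage-, and HPCs differed from them in being CD48+. Hence 3 of the 10 genes encode gate antigens: Slamf1 (CD150), Cd48 (CD48) and Procr (EPCR). Cells were held to these antigens as protein, so the transcripts of the 3 genes were measured within limits that the sort set. The other 7 genes are not in the gate of the labels. The gate is stated for cells taken after 5-FU and for the HSCs that were put into culture. For the untreated and uncultured libraries the labels name the cells only as hematopoietic stem cells. In comparisons with them, a difference in gating cannot be told apart from an effect of 5-FU or culture.

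CD150, CD48 and CD244 (2B4) are receptors of the SLAM family, and CD48 is the ligand of CD244. In steady-state mouse marrow the stem cells carry CD150 and lack CD48 and CD244, and this difference underlies the SLAM sorting scheme. KIT and FLT3 are receptor tyrosine kinases for stem cell factor and FLT3 ligand. KIT and SCA-1, the product of Ly6a, are positive in the classical stem cell gate, whereas CD34 and FLT3 appear as stem cells give rise to multipotent progenitors.

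Slamf1, Cd48 and Cd244 lie together on mouse chromosome 1, all on the plus strand. In the mm10 build of the files, Cd244 spans chr1:171558713-171585316, Cd48 chr1:171681420-171705257 and Slamf1 chr1:171767132-171801184. From the start of Cd244 to the end of Slamf1 the cluster measures 242 kb, with Ly9 and Slamf7 between Cd244 and Cd48, and Cd48 ends 61.9 kb before Slamf1 starts. The promoter windows of these 3 genes are printed because they lie side by side and, between HPCs and HSCs, Cd48 and Cd244 were higher while Slamf1 was lower. Each window runs 5′ to 3′ on the plus strand from 250 bases before to 50 bases after a RefSeq transcript start of GRCm38.p6, the assembly that mm10 denotes. The Slamf1 window is chr1:171766882-171767181, the Cd48 window chr1:171681742-171682041 and the Cd244 window chr1:171558943-171559242. For Cd48 and Cd244 the RefSeq start lies inside the gene span of the files. Capitals mark the letters of a searched motif on either strand.
Slamf1: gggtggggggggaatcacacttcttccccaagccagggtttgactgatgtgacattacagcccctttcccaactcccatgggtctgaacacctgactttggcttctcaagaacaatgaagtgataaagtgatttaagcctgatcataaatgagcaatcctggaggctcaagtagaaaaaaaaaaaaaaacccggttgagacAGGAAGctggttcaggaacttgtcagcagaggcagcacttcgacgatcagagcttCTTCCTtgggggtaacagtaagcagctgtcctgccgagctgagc
Cd48: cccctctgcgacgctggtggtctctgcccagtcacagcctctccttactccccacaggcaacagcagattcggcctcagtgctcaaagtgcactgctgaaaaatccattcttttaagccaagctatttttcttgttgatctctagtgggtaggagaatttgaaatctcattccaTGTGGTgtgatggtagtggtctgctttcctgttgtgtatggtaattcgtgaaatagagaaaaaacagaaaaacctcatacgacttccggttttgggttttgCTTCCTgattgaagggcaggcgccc
Cd244: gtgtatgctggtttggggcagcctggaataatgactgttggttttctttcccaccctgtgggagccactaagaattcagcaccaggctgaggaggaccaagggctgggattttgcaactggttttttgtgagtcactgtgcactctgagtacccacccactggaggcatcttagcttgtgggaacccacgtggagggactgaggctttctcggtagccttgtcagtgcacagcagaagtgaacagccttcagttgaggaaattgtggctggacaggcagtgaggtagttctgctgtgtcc
Both strands of every window were searched for 4 motifs. ETS factors were represented by AGGAAG and RUNX factors by the letters TGTGGT. The GATA-factor motif was searched as AGATAA, and the interferon response element as a gapped repeat. The Slamf1 window held AGGAAG at positions -49 to -44 from the start and its reverse complement at 7 to 12. Cd48 had TGTGGT at -76 to -71 and the reverse complement of AGGAAG at 26 to 31. No match to these letters was found in the Cd244 window. Of 32851 RefSeq windows of the same length, 35.4% held the ETS letters, 16.8% the RUNX letters, 11.2% the GATA-factor letters and 3.44% the interferon element, so the ETS letters in particular are common. Among the other members with a window, Cd34, Kit and Cd9 held AGGAAG, and Procr, Flt3 and Cd27 held none of the 4 motifs. In all, 9 of the 10 members had a window in the RefSeq table.

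The remaining genes lie on other parts of the genome, in mm10 coordinates. Procr was at chr2:155751125-155755478 on the plus strand and Cd34 at chr1:194938821-194961292 on the plus strand. Kit (chr5:75574987-75656722, plus) and Flt3 (chr5:147330741-147400489, minus) are on the same chromosome. Cd27 (chr6:125232620-125237027) and Cd9 (chr6:125460266-125494755) are both on the minus strand, and Ly6a is at chr15:74994877-74998031, minus. An entry annotated without exons overlaps Cd244, Cd34, Ly6a, Flt3, Cd27 and Cd9 on the opposite strand. The sources used here do not say whether reads were assigned by strand, so reads of such an antisense transcript cannot be told apart from those of the gene. Reads counted as unique were 18.4% of all exon reads for Ly6a, 24.6% for Cd27, 48.9% for Cd34 and 73.7% for Cd9, and at least 97.9% for the other 6 members. Among exon-exon junction reads the share was 90.8% for Ly6a, 95.01% for Cd27 and above 99% for Cd34 and Cd9. Levels of these 4 genes therefore depend on how shared reads were counted; changes were recomputed from unique reads.

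Libraries held 5208722 to 12243208 exon reads, and 60.6 to 70.8% of reads on genes were intronic. Levels are given as CPM, exon reads of the gene scaled to the library total, with library sizes scaled by the TMM method over all 30 libraries, as mean ± SD. The labels do not say that replicate libraries came from separate mice, so p-values measure the spread between libraries, which may be technical. In bulk samples, fewer cells with a transcript and less transcript per cell cannot be told apart. Summed CPM of 10 erythroid markers were 2504 to 6439 in untreated HSCs, 299 to 430 at day 6 and 311 to 1441 at day 10. Summed CPM of 10 macrophage markers were 33.1 to 53.8 in untreated HSCs, 39.3 to 547 at day 6 and 95.02 to 280.3 at day 10, so all 6 day-10 libraries lay above every untreated one. They were 163 to 1235 in HPCs, against 72.7 to 339 in CD48- HSCs. In 5 libraries a marker or interferon list exceeded the next highest library of the group by over 2.5 times. They were untreated library 3 (neutrophil list, 2090 against 41.9 CPM), day-6 library 1 (macrophage, 547 against 169) and day-10 library 6 (interferon response, 4284 against 1574). In the third experiment they were CD48- HSC library 3 (erythroid, 9503 against 309, and macrophage, 339 against 87.5) and HPC library 3 (macrophage, 1235 against 464). The rule sets only the highest library against the next, so it can miss a group with several high libraries. Uncultured libraries 1 and 4 held 2364 and 1531 CPM of neutrophil markers, and libraries 2 and 3 held 103 and 83.5 CPM. For erythroid markers, uncultured libraries 1 and 3 held 3188 and 4851 CPM, and libraries 2 and 4 held 79.0 and 78.6 CPM. The part of these RNAs in the changes below was not tested, except that counts were also made without the 5 libraries. Summed CPM of 10 neutrophil markers were 32.6 to 2090.2 in untreated HSCs, 13.4 to 15.2 at day 6, 35.8 to 69.8 at day 10, and 122 to 452 in HPCs against 41.8 to 106 in CD48- HSCs.

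Within untreated HSCs, levels per kilobase of exon set the 10 genes far apart. Kit stood highest at 231 ± 30.6 CPM per kb (SD, n = 4). Ly6a (83.9 ± 7.89), Cd27 (72.9 ± 1.47), Cd34 (58.8 ± 8.11), Cd9 (53.8 ± 7.52) and Procr (40.7 ± 3.65 CPM per kb) formed a middle range. The order within this range depends on how shared reads were counted. From unique reads, not divided by exon length, untreated means were 18.3 CPM for Ly6a, 38.3 for Cd27 and 88.7 for Cd34. Those of Cd9 and Procr were 58.9 and 90.6 CPM. Slamf1 was at 11.2 ± 1.65 and Flt3 at 4.96 ± 3.16 CPM per kb. Cd244 and Cd48, the SLAM receptors that HSCs lack as protein, were lowest at 0.336 ± 0.189 and 0.280 ± 0.278 CPM per kb. Across the 7 group means, Cd48 varied most, with a 120-fold ratio of highest to lowest, followed by Cd244 (35.4-fold) and Flt3 (16.2-fold). Ly6a, Procr, Slamf1 and Cd34 varied 5.43-, 4.66-, 4.25- and 3.50-fold, Cd27 and Kit 2.45- and 2.38-fold, and Cd9 1.67-fold.

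**Figure D1:**
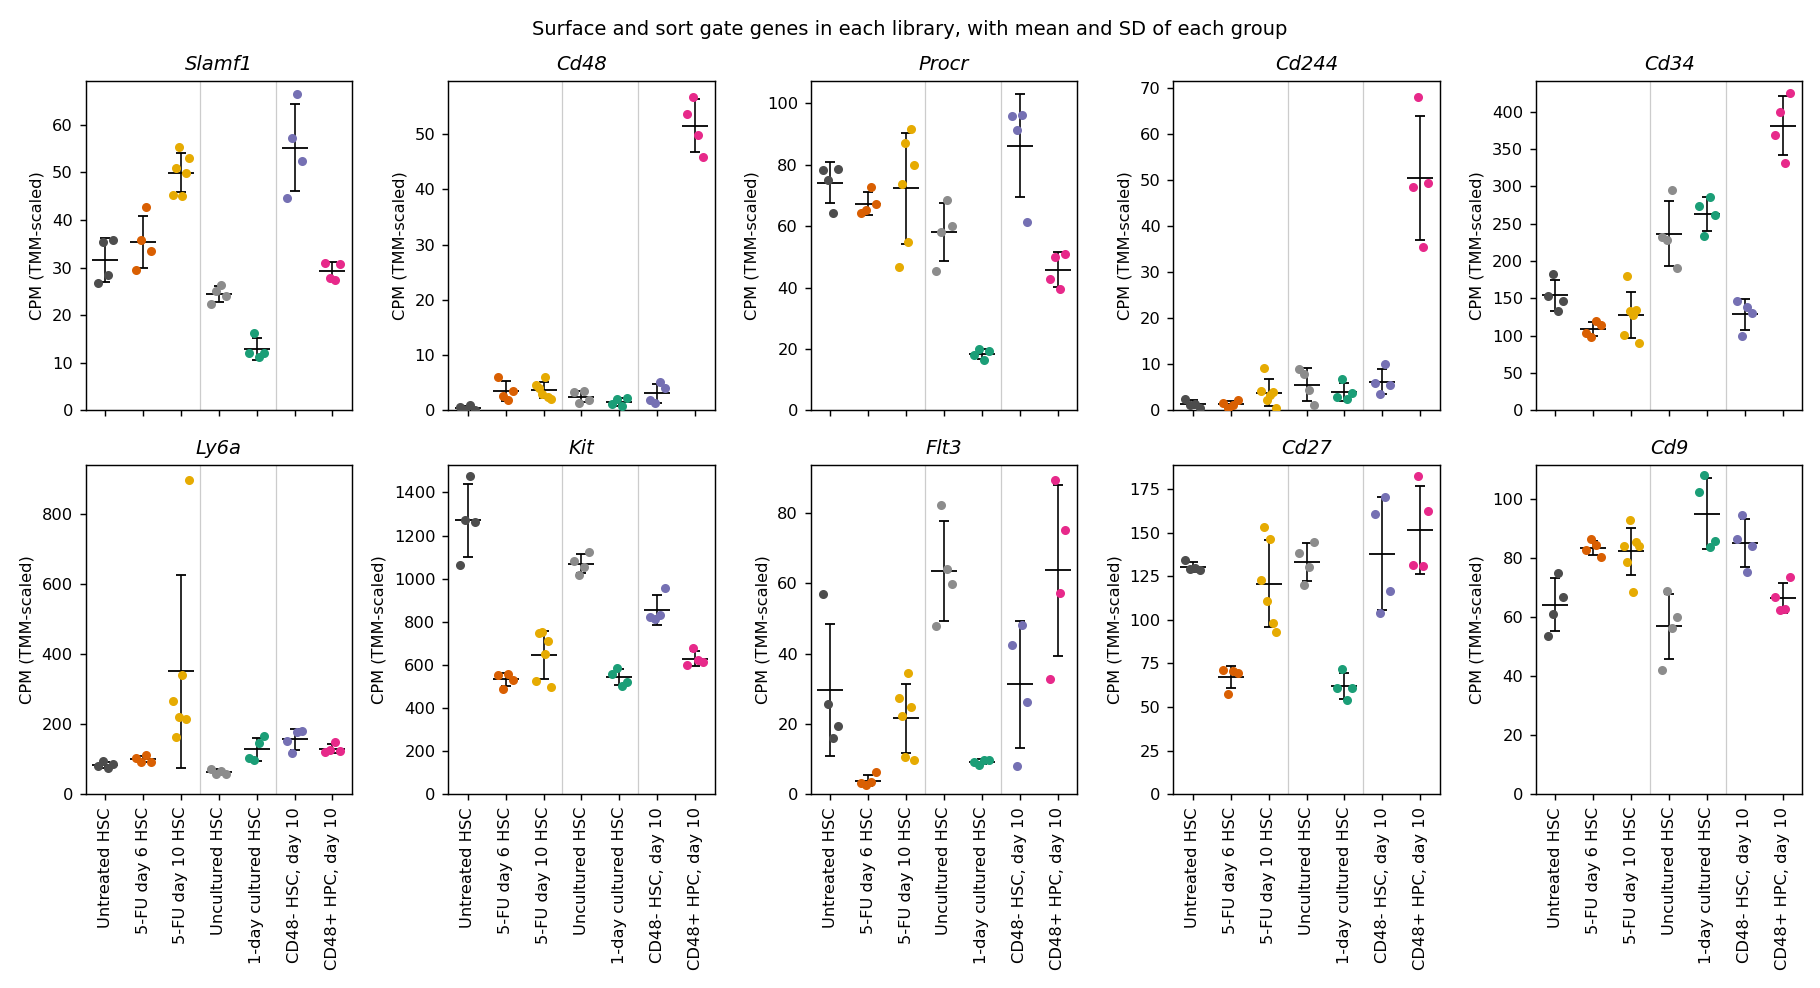
CPM of each of the 10 genes (vertical axes, linear, from 0) in every library of the 7 groups (horizontal axis). Points are libraries, long bars are group means and whiskers are SDs; grey lines separate the 3 experiments. Cd48, Cd244 and Cd34 were highest in CD48+ HPCs, Kit in untreated HSCs, and 1 day-10 library reached 899 CPM of Ly6a.

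The first experiment asked how HSCs change after 5-FU. At day 6, Cd48 and Cd9 were higher than in untreated HSCs and Kit, Flt3, Cd27 and Cd34 were lower, so 6 of 10 genes passed the test. Cd48 is among these at both times but had to differ, since it entered the fit only through the 5-FU groups. The 6 of 10 are near the share of all tested genes called in this comparison, 51.4% (edgeR quasi-likelihood test, Benjamini-Hochberg adjusted p under 0.05 over 12886 genes). Their libraries did not overlap between the groups for the same 6 genes, against 48.5% of all genes. By day 10, Slamf1, Cd48, Ly6a and Cd9 were higher than in untreated HSCs and Kit alone was lower, 5 of 10 against a background of 38%. Of these, all but Cd9 separated without overlap (4 of 10, background 23.6%). Between day 6 and day 10, Slamf1, Ly6a, Flt3 and Cd27 rose and none fell (4 of 10, background 30.6%), and the same 4 separated without overlap (background 22.6%). The 2 time points share the untreated libraries as their base.

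One day of culture lowered Slamf1, Procr, Kit, Flt3 and Cd27 and raised Ly6a and Cd9. These 7 of 10 compare with 67.6% of 12386 tested genes called, and the same 7 did not overlap (background 62%). Marker sums of several other cell types were lower after culture, without overlap. The 10 neutrophil markers summed to 83.5 to 2364 CPM before and 9.66 to 15.1 CPM after, the 10 macrophage markers to 34.9 to 41.3 and 4.56 to 8.53 CPM, and the 6 T and NK cell markers to 18.6 to 72.3 and 4.17 to 5.62 CPM. Erythroid sums overlapped, at 78.6 to 4851 CPM before and 454 to 615 CPM after. Megakaryocyte sums overlapped too, at 377 to 1018 and 306 to 397 CPM. The part of such cells in the 7 changes was not tested. The third experiment compared HPCs with HSCs 10 days after 5-FU, where Cd48, Cd244 and Cd34 were higher in HPCs and Slamf1, Procr, Kit and Cd9 were lower. Here 7 of 10 were called against 26.5% of 12719 tested genes, and the same 7 did not overlap (background 27.1%). The difference in Cd48 checks the sort labels and is no finding.

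**Figure D2:**
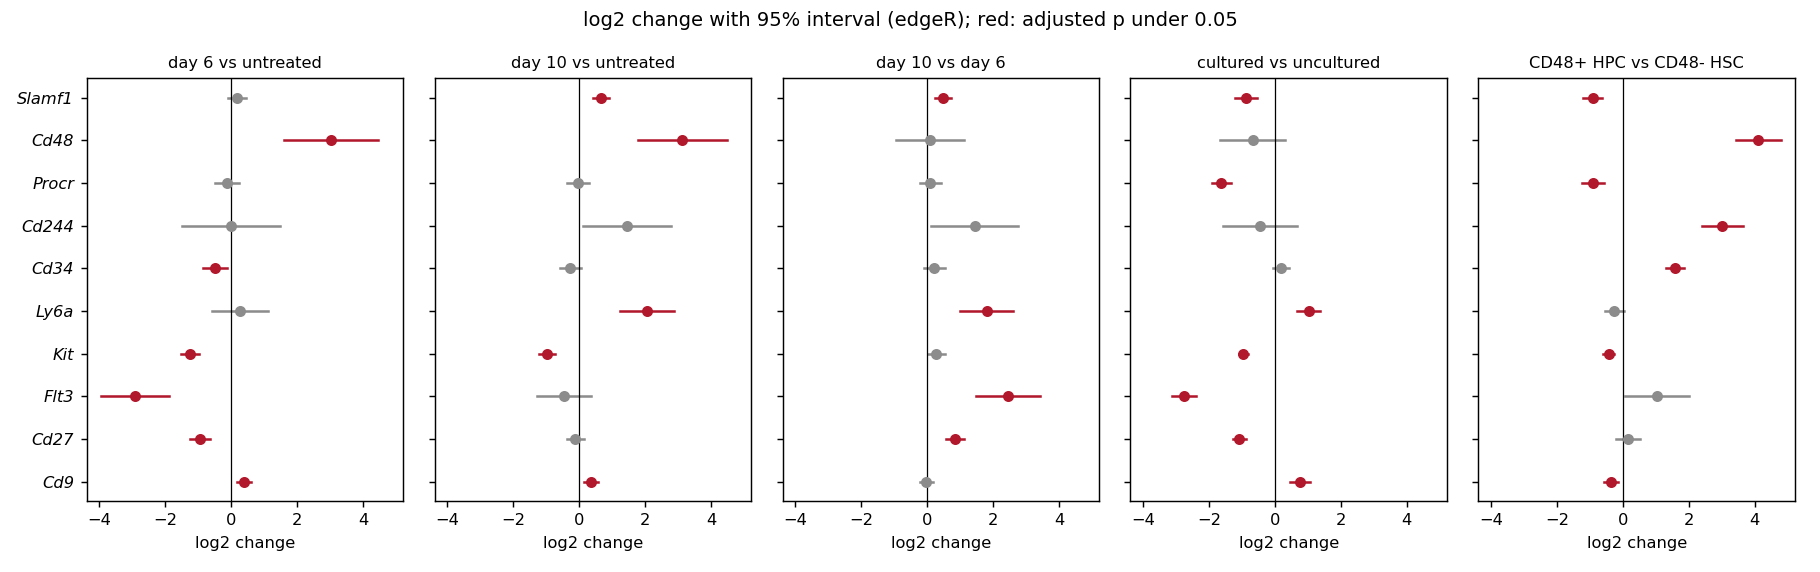
log2 change (horizontal axis) of the 10 genes in 5 comparisons, with 95% confidence intervals of the edgeR fit; red marks an adjusted p under 0.05 and grey the rest. Cd48 had the largest positive value in the 3 comparisons where it was called, 3.02, 3.12 and 4.10. It had to differ there, through the low-count filter in the first experiment and the CD48+ gate in the third. Flt3 had the lowest value in day 6 against untreated and in culture, -2.92 and -2.76.

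Slamf1, the gate antigen CD150, rose late after 5-FU and fell in culture. Untreated libraries held 26.7, 35.4, 28.4 and 35.7 CPM, and those of day 6 held 29.5, 35.7, 42.7 and 33.5 CPM. At day 10 the lowest was 45.0, the median 50.4 and the highest 55.3 CPM. All 6 day-10 libraries lay above every untreated and day-6 library, whereas untreated and day-6 libraries overlapped. The log2 change at day 10 was 0.66 ± 0.12 (SE) with an edgeR adjusted p of 0.000518, and at day 6 it was 0.17 with a 95% interval of -0.10 to 0.44. In culture, values moved from 22.4, 25.1, 26.4 and 23.99 CPM to 12.1, 16.3, 11.3 and 12.2 CPM, with no overlap. That fall was -0.89 ± 0.15 on the log2 scale (edgeR adjusted p = 0.000225). Day-10 CD48- HSCs held 44.6, 57.2, 66.4 and 52.4 CPM, above the 31.0, 27.9, 27.3 and 30.8 CPM of HPCs, although both were gated CD150+. HPCs were lower by -0.91 ± 0.13 (edgeR adjusted p = 0.000861), which placed them among the levels of untreated HSCs.

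Cd48, whose product excluded cells from the HSC gate, was scarce in every HSC group. Reads in the 4 untreated libraries numbered 4, 1, 5 and 0, or 0.621, 0.164, 0.929 and 0 CPM. Day-6 libraries gave 6.02, 2.54, 1.81 and 3.53 CPM, and day-10 libraries ranged from 2.06 to 6.06 with a median of 3.58 CPM. Every 5-FU library thus exceeded every untreated library. The log2 change was 3.02 ± 0.67 at day 6 (edgeR adjusted p = 0.00142) and 3.12 ± 0.64 at day 10 (edgeR adjusted p = 0.00142). The gene passed the low-count filter of this fit only through the 5-FU groups, since 0 of 4 untreated libraries reached the cutoff of 1.43 CPM, so it had to differ. Without untreated library 3 the fitted changes were 3.66 and 3.76, and without the 5 libraries that stand apart 3.25 and 3.88.

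The base of that rise differed between experiments. Uncultured HSCs, the other untreated group, held 3.38, 1.33, 3.45 and 1.91 CPM of Cd48, within or near the range of the 5-FU groups and above all 4 untreated libraries. Against untreated HSCs this was a log2 difference of 2.58 ± 0.63 (edgeR adjusted p = 0.0168, fit of all 30 libraries). The difference was 3.20 without untreated library 3, and it lost the call without untreated library 2 or 4 or uncultured library 3 (edgeR adjusted p = 0.0526, 0.0664 and 0.0556). Experiment and group cannot be told apart here. For comparison, CD48- HSCs of the third experiment held 1.89, 1.28, 5.11 and 4.02 CPM, while HPCs held 53.7, 56.7, 49.7 and 45.8 CPM. HPCs were thus 17.1-fold higher (log2 4.10 ± 0.31, edgeR adjusted p = 2.34e-05), as the CD48+ gate requires. Culture gave 1.14, 2.04, 0.782 and 2.21 CPM, overlapping the uncultured libraries, with a log2 interval of -1.65 to 0.32.

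Procr encodes EPCR, the endothelial protein C receptor and the remaining gate antigen. Its libraries were at 78.4, 75.2, 64.4 and 78.6 CPM in untreated HSCs and at 64.3, 65.4, 72.7 and 67.1 CPM at day 6. Day 10 ranged from 46.6 through a median of 76.9 to 91.5 CPM. These groups overlapped, and the log2 intervals were -0.49 to 0.22 at day 6 and -0.36 to 0.29 at day 10. Culture separated completely, from 45.6, 58.3, 68.6 and 60.2 CPM to 17.95, 20.1, 16.4 and 19.5 CPM, a 3.09-fold fall (log2 -1.63 ± 0.13, edgeR adjusted p = 3.26e-07). CD48- HSCs held 96.0, 91.3, 96.2 and 61.3 CPM and HPCs 42.7, 50.1, 39.6 and 51.1 CPM. Both populations were gated EPCR+, yet HPCs were lower by log2 -0.91 ± 0.15 (edgeR adjusted p = 0.00169), with no overlap between the libraries.

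Effects of 5-FU and culture were compared directly in 1 fit of all 30 libraries, as the day-6 change minus the culture change. That difference passed the test for 4 of 10 genes (background 15.1%). It was 1.08 ± 0.19 for Slamf1 (edgeR adjusted p = 0.000193), 1.52 ± 0.24 for Procr (edgeR adjusted p = 4.81e-05) and 3.73 ± 0.79 for Cd48 (edgeR adjusted p = 0.00170), or 4.35 without untreated library 3. For Cd48 the difference rests on the untreated base, where 0 of 4 libraries reached the filter cutoff of the first experiment and which lay below the uncultured base. Cd34 had -0.65 ± 0.22 (edgeR adjusted p = 0.0425), a call lost on leaving out any of 12 of the 16 libraries. These 12 were untreated, day-6 and uncultured libraries 1, 2 and 4 and cultured libraries 1, 3 and 4. The edgeR adjusted p rose to at most 0.0988. With intron reads Cd34 gave -0.67 and Cd48 1.63, and neither was called (edgeR adjusted p = 0.154 and 0.200). Junction reads gave -0.69 and 2.48, again without a call (edgeR adjusted p = 0.101 and 0.224). For Kit, Flt3 and Cd27, which fell in both settings, the differences had intervals of -0.58 to 0.03, -1.50 to 1.21 and -0.29 to 0.59. The 2 effects come from separate experiments with separate controls.

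Cd244 encodes the CD48 receptor 2B4 and was not in the gate of the labels. CD48- HSCs held 5.90, 3.55, 10.1 and 5.55 CPM and HPCs 48.5, 68.1, 35.4 and 49.4 CPM. Every HPC library exceeded every HSC library of the series, and the increase was 8.10-fold (log2 3.02 ± 0.29, edgeR adjusted p = 8.20e-05). The receptor and its ligand thus rose together in the population sorted for the ligand. Nkg7, a granule protein of cytotoxic lymphocytes that was on the T and NK cell marker list, averaged 120 CPM in HPCs and 20.6 CPM in CD48- HSCs. Another gene of that list, Klrb1c (NK1.1), averaged 4.52 and 24.4 CPM, Cd3g was at 0 in both, and Cd3e averaged 0.531 CPM in HPCs and 0 in HSCs. Summed over the 6 list genes, HPCs held 126 to 144 CPM and CD48- HSCs 32.7 to 72.1 CPM, and the part of such cells in the result was not tested.

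In the first experiment Cd244 stayed low and uneven. Untreated libraries had 2.48, 1.15, 1.49 and 0.574 CPM, day-6 libraries 1.61, 0.565, 1.21 and 2.30 CPM, and day-10 libraries 0.484 to 9.22 CPM with a median of 3.58. The groups overlapped, and at day 10 the log2 change of 1.45 ± 0.63 did not pass (edgeR adjusted p = 0.0810). Without day-10 library 6 it was 1.69 (edgeR adjusted p = 0.0199), and the change from day 6 went from an edgeR adjusted p of 0.0884 to 0.0220. Uncultured HSCs varied widely, with a coefficient of variation of 63.6% where counting alone would give 16.8%. That group gave 9.08, 7.86, 4.496 and 1.11 CPM, and cultured HSCs gave 2.86, 6.84, 2.503 and 3.87 CPM.

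Other SLAM family genes did not move as a block. Of 9 further members and adaptors, 5 were tested in the first experiment. Ly9 rose by 0.99 ± 0.25 at day 6 and 0.98 ± 0.23 at day 10 (edgeR adjusted p = 0.00365 and 0.00412). Cd84, next to Slamf1 on the chromosome, fell by 0.82 and 0.41 on the log2 scale (edgeR adjusted p = 0.000398 and 0.0280). In all, 1 rose and 1 fell at day 6, and 1 rose and 3 fell at day 10, with list medians of -0.82 and -0.41 against -0.04 and -0.00 for all genes. Of all genes, 51.4% and 38% were called there. In culture all 3 tested genes fell, Ly9 by 1.23 and Cd84 by 1.48 (67.6% of all genes called). HPCs had more Ly9 (0.81 ± 0.19, edgeR adjusted p = 0.0110) and less Cd84 (-0.53 ± 0.11, edgeR adjusted p = 0.00542) than HSCs, out of 3 tested (26.5% of all genes called). Ly9 therefore had the sign of Cd48 and Cd244 in that comparison, and Cd84 that of Slamf1.

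In the protein C pathway, 6 of 9 listed partners of Procr were tested. F2r, the thrombin receptor PAR1 through which EPCR-bound protein C signals, rose at day 6 by 1.398 ± 0.23 and in culture by 1.71 ± 0.19 (edgeR adjusted p = 0.000144 and 4.87e-06). Procr itself fell in culture and was not called at day 6. One gene rose and 1 fell at day 6 and at day 10, 2 rose and 2 fell in culture, and 1 rose and 1 fell in HPCs. Thrombomodulin (Thbd), which presents thrombin to protein C, was higher in HPCs by 1.37 ± 0.45 (edgeR adjusted p = 0.0421). Gas6, a TAM receptor ligand related to protein S, was lower in HPCs by -0.54 ± 0.18 (edgeR adjusted p = 0.0434).

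Cd34 encodes a sialomucin that serves as a ligand of selectins and rises as stem cells become multipotent progenitors. HPCs held 369.5, 400.2, 332 and 424 CPM, against 147, 99.4, 138 and 131 CPM in CD48- HSCs. No library overlapped, and the increase was 2.97-fold (log2 1.57 ± 0.13, edgeR adjusted p = 3.54e-05). In the first experiment the untreated libraries had 154, 183, 133 and 146 CPM, those of day 6 had 104, 98.6, 120.0 and 114 CPM, and day 10 ranged from 90.8 to 180 with a median of 130.3 CPM. Day 6 lay wholly below untreated, by log2 -0.50 ± 0.17 (edgeR adjusted p = 0.0205). Leaving out untreated library 2 or day-6 library 2 ended this call (edgeR adjusted p = 0.0705 and 0.0569). At day 10 the interval was -0.59 to 0.05; without day-10 library 2 the change was -0.38 (edgeR adjusted p = 0.0242).

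Cd34 was the other gene that differed between the untreated groups of separate experiments. Uncultured HSCs held 233, 229, 296 and 191 CPM, above every untreated library, a log2 difference of 0.62 ± 0.16 (edgeR adjusted p = 0.0191). This exceeds in size the change from untreated to day 6. The call was lost without untreated library 3 or 4 or uncultured library 3, with edgeR adjusted p of 0.0667, 0.0521 and 0.0895. Cultured HSCs held 274, 233, 286 and 261 CPM, overlapping their uncultured base. Their change, with an interval of -0.07 to 0.43, was called only without uncultured library 3, at 0.30 (edgeR adjusted p = 0.0140).

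Among 6 genes of related sialomucins and their partners, 5 were tested in each experiment. Podocalyxin (Podxl), a relative of CD34, rose at day 6 by 0.76 ± 0.24 (edgeR adjusted p = 0.0152) and in culture by 2.62 ± 0.15 (edgeR adjusted p = 1.79e-08). Fut7, a fucosyltransferase that builds selectin ligands, was higher at day 10 by 0.58 ± 0.21 and in HPCs by 1.02 ± 0.23 (edgeR adjusted p = 0.0373 and 0.00763). In total 2 rose and 0 fell at day 6, 3 and 0 at day 10, 1 and 1 in culture, and 3 and 0 in HPCs. Shares of all genes called were 51.4%, 38%, 67.6% and 26.5% in the same order. List medians were 0.16, 0.58, 0.02 and 0.38. Cd34 itself fell at day 6 and rose in HPCs.

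Ly6a encodes SCA-1, a GPI-anchored protein of the stem and progenitor gate that interferons are known to induce. Untreated libraries held 81.5, 93.8, 75.0 and 85.9 CPM and day-6 libraries 104, 93.2, 112 and 93.4 CPM. At day 10 the 6 libraries had 267, 163, 221, 341, 215 and 899 CPM. Every day-10 library was above every library of the other 2 groups, and library 6 stood far above the rest. The log2 change against untreated was 2.06 ± 0.39 (edgeR adjusted p = 0.000761). Without day-10 library 6 it was 1.53 (edgeR adjusted p = 1.06e-05), and without the 5 libraries that stand apart 1.47, a fold lower by over 1.5 times. At day 6 the change was 0.26 with an interval of -0.59 to 1.11; fitted with those 2 groups alone it had an edgeR adjusted p of 0.0311.

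Interferon response genes were measured beside Ly6a. Summed over 10 such genes, of which Mx1 was at 0 throughout, untreated libraries held 391 to 472 CPM and day-6 libraries 272 to 366 CPM. In the order of the Ly6a values above, the day-10 libraries held 583, 727, 1239, 1574, 576 and 4284 CPM. Day-10 library 6 was thus highest in both measures and library 4 second in both, whereas library 1 exceeded libraries 2, 3 and 5 in Ly6a but had a lower interferon sum than libraries 2 and 3. Library 2 was lowest in Ly6a but not in the sum. At day 6 all 4 libraries were below the lowest untreated library in the interferon sum while their Ly6a values overlapped or exceeded the untreated ones. Culture raised Ly6a from 72.7, 59.3, 67.3 and 59.3 CPM to 103, 98.7, 147 and 166 CPM with no overlap (log2 1.02 ± 0.16, edgeR adjusted p = 7.91e-05). Interferon sums there were 329 to 404 CPM before and 225 to 466.3 CPM after culture. The part of an interferon response in the Ly6a values was not tested.

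**Figure D3:**
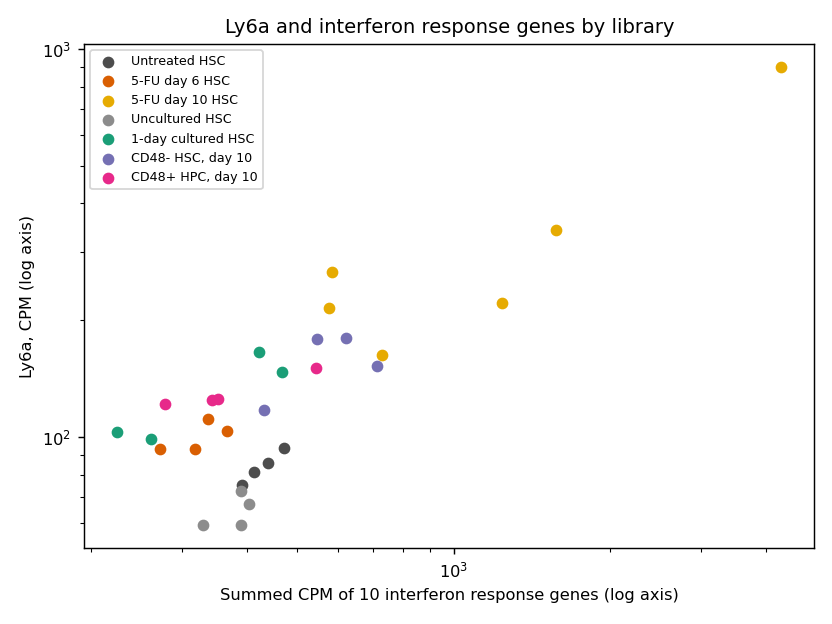
Ly6a level (vertical axis, CPM, log scale) against the summed CPM of 10 interferon response genes (horizontal axis, log scale); each point is 1 of the 30 libraries, coloured by group. Day-10 library 6 lies at 4284 and 899 CPM, apart from the rest, and day-6 libraries lie left of untreated ones at similar or higher Ly6a.

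CD48- HSCs and HPCs of the third experiment held 153, 117, 179 and 180 CPM and 122, 126, 151 and 125 CPM of Ly6a. They overlapped, with a log2 interval of -0.55 to 0.04, and only without CD48- HSC library 2 was the difference called (-0.38, edgeR adjusted p = 0.0247). CD48- HSCs were lower than the day-10 HSCs of the first experiment by -1.16 ± 0.30 (edgeR adjusted p = 0.00878). Without day-10 library 6 that difference shrank to -0.64 (edgeR adjusted p = 0.0130). Recomputed from unique reads, the calls of Ly6a were the same, with 2.11 at day 10 and 1.20 in culture. Of 12 other LY6 family genes, 2 were tested in the first experiment and both rose at day 10, Ly6c1 by 3.41 ± 0.67 and Ly6e by 0.79 ± 0.27 (edgeR adjusted p = 0.00106 and 0.0286). Neither passed at day 6. Of all genes, 38% were called at day 10 and 51.4% at day 6. Ly6e also rose in culture, by 0.46 ± 0.10 (edgeR adjusted p = 0.00175).

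Kit, the stem cell factor receptor, was lower after 5-FU and after culture than in the untreated and uncultured groups, whose gate the labels do not state. Per kilobase of exon the mean of Kit was the highest of the 10 in untreated and uncultured HSCs (231 and 194 CPM per kb). In the other 5 groups the mean of Ly6a was higher when all exon reads were counted. At day 6 (Kit 96.9 ± 5.67, Ly6a 100 ± 8.84) and in CD48- HSCs (155 ± 12.3 and 157 ± 29.4) the means differed by less than either SD. Unique reads were 18.4% of exon reads for Ly6a and 100% for Kit, so this order depends on how shared reads were counted. Untreated libraries held 1065, 1274, 1478 and 1262 CPM. Day-6 libraries fell to 554, 490.4, 558 and 529.8 CPM, and day-10 libraries ranged from 499 to 752 with a median of 683 CPM. No 5-FU library reached the lowest untreated library. The change was -1.25 ± 0.13 at day 6 (edgeR adjusted p = 2.40e-06) and -0.97 ± 0.12 at day 10 (edgeR adjusted p = 2.33e-05). From day 6 to day 10 the difference was 0.28, with an edgeR adjusted p of 0.0852; it fell to 0.0281 without day-10 library 6, to 0.0497 without day-10 library 1 and to 0.0273 in the fit of all 30 libraries. In culture the 4 libraries went from 1084, 1018, 1055 and 1122 CPM to 559, 586, 505 and 519 CPM (log2 -0.95 ± 0.06, edgeR adjusted p = 3.66e-08). HPCs, at 599.7, 681, 622 and 615 CPM, were below CD48- HSCs at 820.1, 813, 831 and 956 CPM by -0.44 ± 0.08 (edgeR adjusted p = 0.00300).

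Flt3, the receptor that marks multipotent progenitors, had the largest fall of the 10 genes both at day 6 and in culture. Values were 57.1, 25.6, 16.2 and 19.4 CPM in untreated HSCs and 3.23, 2.54, 3.62 and 6.30 CPM at day 6. At day 10 they ranged from 9.80 through a median of 23.6 to 34.5 CPM. Every day-6 library was below every untreated and day-10 library, while untreated and day-10 libraries overlapped. The fall at day 6 was 7.56-fold (log2 -2.92 ± 0.48, edgeR adjusted p = 0.000139) and the rise from day 6 to day 10 was 5.50-fold (log2 2.46 ± 0.46, edgeR adjusted p = 0.00124). Culture lowered it 6.76-fold, from 47.9, 82.3, 64.0 and 59.7 CPM to 9.15, 8.29, 9.70 and 9.81 CPM (log2 -2.76 ± 0.17, edgeR adjusted p = 2.56e-08). In the third experiment CD48- HSCs held 42.6, 8.00, 48.2 and 26.2 CPM and HPCs 32.9, 89.3, 57.3 and 75.3 CPM. These overlapped, and the difference of 1.04 ± 0.44 did not pass (edgeR adjusted p = 0.101).

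Replicates of Flt3 differed beyond counting error in several groups. Its coefficient of variation was 63.6% in untreated HSCs, where counting alone would give 7.32%, and 57.9% against 6.21% in CD48- HSCs. In culture it was 7.49%, against a counting error of 12.2%. Kit, by contrast, varied by 4.10 to 17.2% within groups. Among 15 ligands and signalling partners of KIT and FLT3, 2 rose and 3 fell at day 6, 6 rose and 2 fell at day 10, and 3 rose and 6 fell in culture (14 tested there). In HPCs 0 rose and 1 fell. Shares of all genes called were 51.4%, 38%, 67.6% and 26.5% in the same order. Cblb, a ubiquitin ligase that limits kinase signalling, rose at day 10 by 0.79 ± 0.08 (edgeR adjusted p = 5.87e-06) and fell in culture by 1.04 on the log2 scale (edgeR adjusted p = 4.92e-07). Sh2b3 (LNK), an inhibitor of KIT signalling, rose at day 6 by 0.50 ± 0.08 (edgeR adjusted p = 8.73e-05).

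Cd27 encodes a receptor of the TNF receptor family present on stem and progenitor cells. Untreated libraries were closely grouped at 134, 129, 129 and 129 CPM, a coefficient of variation of 2.02% against a counting error of 3.51%. Day-6 libraries had 71.1, 57.5, 70.7 and 69.8 CPM, and day-10 libraries 92.8 to 153 CPM with a median of 117. Day 6 was thus wholly below both other groups, which overlapped. The fall was 1.93-fold (log2 -0.95 ± 0.14, edgeR adjusted p = 5.11e-05), and from day 6 to day 10 the level rose by 0.84 ± 0.13 (edgeR adjusted p = 0.000360). Culture lowered Cd27 from 138, 119.8, 130.1 and 145 CPM to 60.7, 72.0, 54.0 and 61.2 CPM (log2 -1.08 ± 0.10, edgeR adjusted p = 7.13e-07). HPCs did not separate from CD48- HSCs, with 131, 182, 131 and 162 CPM against 161, 104, 170.1 and 117 CPM, and an interval of -0.22 to 0.51. Unique reads gave -0.85 at day 6 and -0.87 in culture, both called.

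Of 6 other genes of the CD27 pathway, 5 were tested. Siva1, a proapoptotic protein that binds the CD27 tail, moved against the receptor, with 1.46 ± 0.10 at day 6 and 1.80 ± 0.11 in culture (edgeR adjusted p = 7.88e-08 and 3.60e-08). Map3k14 (NIK), a kinase downstream of TNF family receptors, fell with it, by 0.87 and 0.71 on the log2 scale (edgeR adjusted p = 0.000363 and 0.000231). In these comparisons 2 rose and 1 fell in each, where 51.4% and 67.6% of all genes were called.

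Cd9, a tetraspanin that organises membrane partners, changed least over the groups. It was 53.7, 61.1, 74.8 and 67.0 CPM in untreated HSCs, 82.8, 86.3, 84.3 and 80.4 CPM at day 6, and 68.6 to 92.8 CPM with a median of 84.2 at day 10. Day 6 lay above untreated without overlap, and 1 day-10 library fell within the untreated range. Changes were 0.38 ± 0.10 and 0.36 ± 0.10 (edgeR adjusted p = 0.00627 and 0.00820). Neither was called from intron reads (0.19 and 0.21, edgeR adjusted p = 0.297 and 0.247) or from junction reads (0.28 and 0.29, edgeR adjusted p = 0.0758 and 0.0721). Culture gave 102, 108, 83.8 and 85.9 CPM from 42.2, 68.8, 56.2 and 60.2 CPM (0.77 ± 0.14, edgeR adjusted p = 0.000296). HPCs held 66.8, 62.5, 62.8 and 73.6 CPM, below the 86.5, 94.6, 75.2 and 84.2 CPM of CD48- HSCs, by -0.35 ± 0.10 (edgeR adjusted p = 0.0229). That last call was lost without CD48- HSC library 1 or 2 or HPC library 1, 2 or 3, at edgeR adjusted p of 0.0535 to 0.0618, and with intron reads (edgeR adjusted p = 0.0973).

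Of 15 other tetraspanins and CD9 partners, 3 rose and 3 fell at day 6, 4 and 3 at day 10, 7 and 6 in culture, and 3 and 2 in HPCs. Beside these counts, 51.4%, 38%, 67.6% and 26.5% of all tested genes were called. Cd53, a tetraspanin of leukocytes, rose by 2.18 ± 0.24 at day 6 and 3.69 ± 0.24 at day 10 (edgeR adjusted p = 3.51e-06 and 9.72e-08). Cd63, of lysosomes and secretory vesicles, rose in culture by 0.99 ± 0.09, where Cd37 fell by 1.96 on the log2 scale (edgeR adjusted p = 9.38e-07 and 4.58e-09).

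A further list held 24 surface markers used to sort stem and progenitor cells. At day 6, 3 rose and 11 fell of 22 tested, where 51.4% of all genes were called, with a median of -0.35 against -0.04 for all genes. Adgrg1 (GPR56), an adhesion G protein-coupled receptor, fell by 1.11 on the log2 scale (edgeR adjusted p = 1.12e-07). At day 10, 6 rose and 6 fell (38% of all genes called), and Adgrg1 was lower at -0.53 ± 0.07 (edgeR adjusted p = 5.61e-05). From day 6 to day 10, 10 rose and 1 fell (30.6% of all genes called). Culture lowered 13 and raised 2 of 20 (67.6% of all genes called), with a median of -0.76. HPCs were higher in 6 and lower in 7 of 23 (26.5% of all genes called), with Robo4, an endothelial and stem cell receptor, at -1.32 ± 0.19 (edgeR adjusted p = 0.000713).

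Groups with the same labelled state in separate experiments were also compared. Experiment cannot be told apart there from any other difference between the groups. Between the uncultured and untreated groups, Cd48 and Cd34 were called, 2 of 10 against a background of 4.65%, and 4 genes did not overlap (background 9.99%): these 2, Slamf1 and Ly6a. Between CD48- HSCs at day 10 and the day-10 HSCs of the first experiment, Ly6a was lower and Kit higher by 0.40 ± 0.10 (edgeR adjusted p = 0.00560), 2 of 10 against 16.2%. Kit alone did not overlap there (background 7.7%). Kit at day 10 was nevertheless below both untreated groups, with the highest day-10 value among the 10 day-10 HSC libraries of either experiment at 956 CPM and the lowest untreated or uncultured value at 1018 CPM.

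Intron reads, which come largely from unspliced transcripts, were counted separately. For Flt3 they gave -2.29 at day 6, beside -2.92 in exons, and -2.74 in culture, beside -2.76. For Procr they gave -1.46 in culture, beside -1.63, and each of these was called. Kit at day 6 was called too, at -0.75 (edgeR adjusted p = 0.00982) beside -1.25 in exons. Cd48, Cd244 and Cd34 were higher in HPCs in introns too, at 4.33, 2.96 and 1.59. Other calls were lost in introns. Cd48 at day 10 gave 1.43 (edgeR adjusted p = 0.0553) beside 3.12 in exons. Kit gave -0.51 at day 10 (edgeR adjusted p = 0.0524) beside -0.97, and -0.21 in HPCs (edgeR adjusted p = 0.558) beside -0.44. Cd34 at day 6 gave -0.61 (edgeR adjusted p = 0.0542). Cd9 was called from introns in none of its 4 exon calls, with 0.57 in culture (edgeR adjusted p = 0.0865). Slamf1 had unlike values in the kinds of reads. Its introns rose at day 6 by 0.66 (edgeR adjusted p = 0.00611), where exon reads gave 0.17. At day 10 they rose by 1.16 (edgeR adjusted p = 0.000120) beside 0.66 in exons, and in culture they gave -0.25 (edgeR adjusted p = 0.443), where exon reads fell by 0.89 on the log2 scale. Ly6a introns in culture gave 0.45 (edgeR adjusted p = 0.325) beside 1.02 in exons. The difference between exon and intron changes was not tested.

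**Figure D4:**
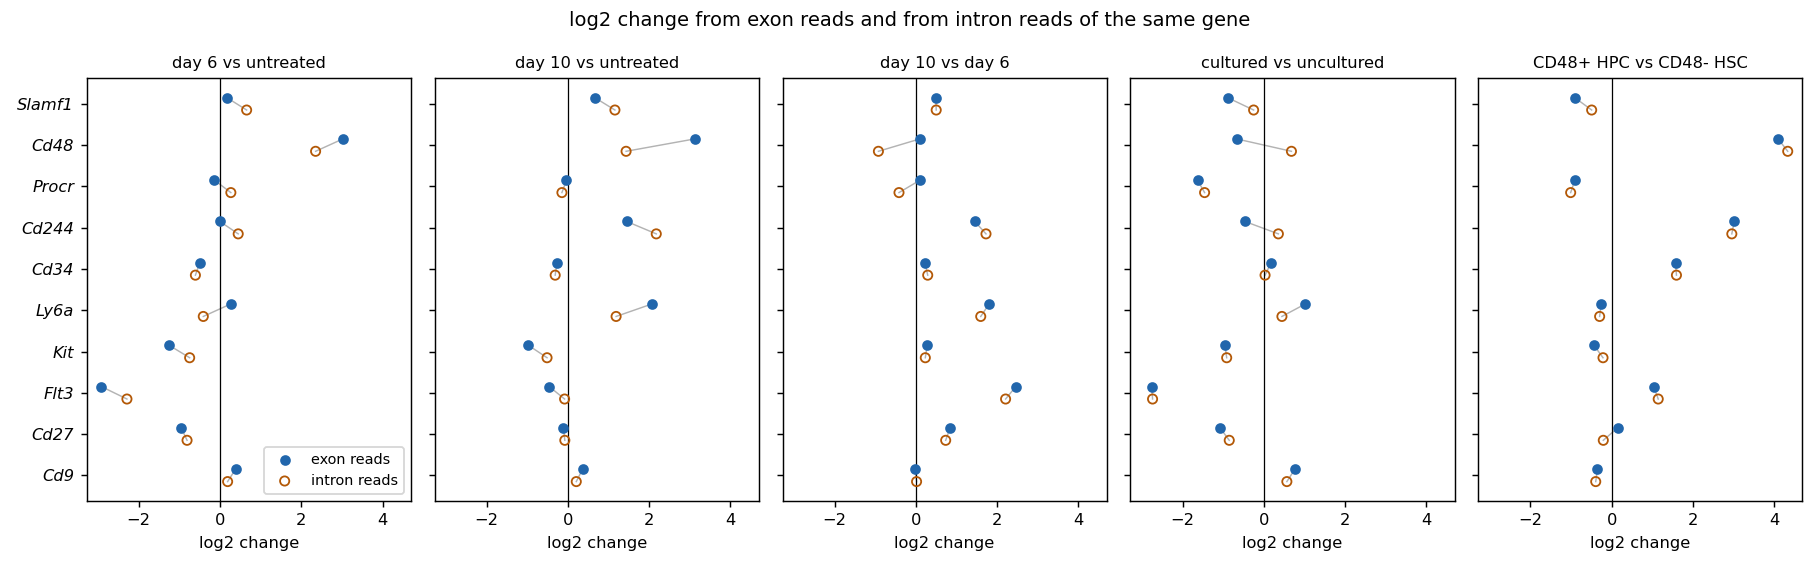
log2 change from exon reads (filled) and from intron reads (open) of the same gene, for 10 genes in 5 comparisons; lines join the pairs. Exon and intron values of Flt3 were -2.92 and -2.29 at day 6 and -2.76 and -2.74 in culture, while Slamf1 in culture was -0.89 in exons and -0.25 in introns.

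Across the 7 group means, the order of levels placed HPCs first for Cd48, Cd244, Cd34, Flt3 and Cd27. For Flt3 and Cd27 the HPC libraries overlapped those of the next group, uncultured HSCs for Flt3 and CD48- HSCs for Cd27. Slamf1 and Procr were highest in CD48- HSCs at day 10 and lowest in cultured HSCs, and Procr overlapped along the whole series from its first to its sixth group. Kit was highest in untreated and uncultured HSCs, which overlapped, and lowest at day 6 and in culture, which overlapped as well. The genes whose 7 means were most like each member, by root mean square difference of centred log2 CPM, were Esam for Slamf1 (0.13), Ift81 and Foxo1 for Procr (0.14 and 0.17), Ermard for Kit (0.06) and H2-DMa for Cd27 (0.09). Esam, an adhesion molecule of endothelium and stem cells, went from 49.2 CPM in culture to 228 CPM in CD48- HSCs. Tespa1 was nearest to Cd48 (0.58), Bex6 to Cd244 (0.73), Synpo2 to Flt3 (0.35), Palm to Cd34 (0.23) and Ms4a6d and Oas1a to Ly6a (0.22 and 0.23).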

How the data were processed

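RNA of 100 sorted bone marrow cells per library was sequenced, and the authors deposited whole-number read counts per gene for exons, unique exon reads, exon-exon junctions and introns, per the file headers. The mm10 build is named in the submitters' processing notes; no aligner or counter is named in the sources used here. Groups came from the labels. The members and lists were chosen with earlier results of these data known. Total exon counts were tested with edgeR's quasi-likelihood test (edgeR 4.0.16, R 4.3.3; filterByExpr, TMM, Benjamini-Hochberg over all tested genes, threshold 0.05), 1 fit per experiment, and 1 fit of all 30 libraries for contrasts between experiments and for the difference of effects. Libraries held 5208722 to 12243208 exon reads. Tables were made in Python 3.11.15 with pandas 2.3.3 and figures with matplotlib 3.10.9. The named genes are the 10 members, the 2 tested genes of smallest p per list and comparison, and the 2 genes most like each member over 7 group means. Replicates differed by more than sampling noise (chi-square per degree of freedom 2.44 to 43.3 over 51 pairs). The tests were tested on simulated data: for day 6 against untreated, 82.1% of 67 genes changed 2-fold were recovered among 12483 genes. This recovery was 65.7% at day 10, 77.6% in culture and 61.2% in HPCs. Of genes changed 1.5-fold, 26.9 to 43.3% were recovered. False calls were 8.1% of calls at day 6 and 3.4 to 6.2% in the other comparisons. Simulated fits held 2 groups alone, unlike the reported day-6 and day-10 fits. A far smaller share of genes was changed than was called in the data. These shares therefore need not hold for the tests reported. Alternatives were DESeq2 1.42.0, RLE size factors, no filter, a replicate block, 2 groups alone, all libraries in 1 fit, other kinds of reads and leaving out libraries; junction reads and the set without 5 libraries were added after seeing the data. Some named genes of the lists are not reported here.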

Additional observations from a re-analysis of the deposited data

Results flagged for a closer look

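In 6 of 70 sets of 1 gene in 1 group, the gap between a single library and the next took up most of the range of its group. Chance flags about 1 in 20. The rule weighs the gap against the range, so a flagged library need not lie far from the rest. Procr was lowest in CD48- HSC library 4 at 61.3 CPM, and Kit was highest in the same library at 956 CPM. Ly6a was highest in day-10 library 6 at 899 CPM and in HPC library 3 at 151 CPM. Cd27 was highest in untreated library 1 at 134 CPM, in a group with a coefficient of variation of only 2.02%. It was lowest in day-6 library 2 at 57.5 CPM. Both Ly6a libraries are among the 5 that stand apart by marker or interferon genes. The effect at day 6 and the effect of culture differed, by a test of the difference, for Slamf1 (1.08) and Procr (1.52 on the log2 scale). Cd48 (3.73) and Cd34 (-0.65) also passed, but neither was called from intron or junction reads. The Cd48 difference rests on an untreated base under the filter cutoff. The Cd34 call was lost on leaving out any of 12 of the 16 libraries.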

How the results depend on the processing

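No call among the 10 genes changed sign under any alternative run: recomputed, 633 calls held and 48 lost the threshold. Leaving out a library gave 5 to 6 called genes at day 6, 5 to 6 at day 10, 4 to 6 between them, 7 to 8 in culture, 6 to 7 in HPCs, 0 to 3 between the untreated groups, 2 between the day-10 groups and 3 to 4 for the difference of effects. Intron reads called 2 at day 10, 4 in culture, 0 between the untreated groups, 0 between the day-10 groups and 2 for the difference of effects. Junction reads called 3 at day 10, 1 between the untreated groups and 2 for the difference of effects, and Cd48 and Cd244 could not be tested with them in the first 2 experiments. The shares of all genes called under each alternative are not given here. Counts under the alternatives therefore cannot tell a general loss of calls from one particular to the 10 genes. Deviations of same-numbered replicates had correlations of -0.19 to 0.13, the highest for HPC and CD48- HSC library 3. Such values cannot show whether the numbers pair samples, and the labels name no pairing. With a replicate block 6, 5, 5, 7, 6, 3, 2 and 5 genes were called. The Cd9 call in HPCs was lost with the block (edgeR adjusted p = 0.0563). The sign turned in 52 values, none of them called. With intron reads these were, at day 6, Procr 0.27, Cd244 0.45 and Ly6a -0.41; from day 6 to day 10, Cd48 -0.92, Procr -0.41 and Cd9 0.0181; in culture, Cd48 0.68 and Cd244 0.36; in HPCs, Cd27 -0.21; between untreated groups, Kit 0.14; between day-10 groups, Slamf1 -0.17; and in the difference of effects, Kit 0.13 and Flt3 0.41. Cd244 at day 6 was 0.0396 without a filter, 0.0782 with the replicate block, 0.0223 with unique reads, 0.0027 with DESeq2 and 0.00091 with 2 groups alone. With the replicate block, Cd27 at day 10 was 0.0308, Procr from day 6 to day 10 -0.0567 and Cd34 between day-10 groups -0.0641. Cd34 there was -0.00035 with RLE, -0.00041 with DESeq2 and -0.10 without the 5 libraries. Junction reads gave Procr at day 10 0.0641, Cd9 from day 6 to day 10 0.0046, Cd27 between untreated groups -0.0822 and Cd9 between day-10 groups -0.014. Unique reads gave Cd27 -0.15 and Cd9 -0.016 in those last 2 comparisons. Leaving out a library took Cd244 at day 6 from -0.33 to 0.42, Procr at day 10 from -0.11 to 0.0688, Flt3 at day 10 from -0.66 to 0.0775, Cd48 from day 6 to day 10 from -0.12 to 0.50, Procr there from -0.0072 to 0.17 and Cd9 there from -0.0605 to 0.0061. It took Cd27 between untreated groups from -0.016 to 0.0846, Cd34 between day-10 groups from -0.0814 to 0.14, Cd9 there from -0.0067 to 0.10 and Flt3 in the difference of effects from -0.45 to 0.42. The cause was not tested. Depth limits Cd48 and Cd244, which had as few as 0 and 4 exon reads in a library.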

Other observations

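Within groups, deviations of log2 level were correlated over the 26 HSC libraries for the 8 members with enough reads, 28 pairs in all. Pearson's r was 0.59 for Flt3 and Cd27, 0.46 for Cd34 and Flt3 and 0.45 for the gate genes Slamf1 and Procr. It was -0.58 for Ly6a and Kit and -0.42 for Flt3 and Cd9. The pairs share libraries and their depth, and day-10 library 6 holds the highest Ly6a and the lowest Kit of its group. These values are a description, with no test.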
